A study of Homo sapiens with 36 samples.

Results

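The genes described are 47 that encode the presynaptic release machinery, the proteins of synaptic vesicles and of the active zone at which vesicles fuse. They were chosen by name before any filter, as the rows of the deposited tables whose symbol is on the list, and each of the 47 matched 1 row among the 62710 genes of the count table. The list was drawn up with earlier results of these data known. Its shares of calls beside those of all genes are therefore a description and no independent test. Their RNA was followed in 36 libraries of total RNA depleted of ribosomal RNA, made from H9, an established human embryonic stem cell line. In every group neurons were induced by NGN2, a proneural transcription factor switched on by doxycycline. The comparison is one of RAI1 genotype, RAI1 being a chromatin protein whose lost copy underlies Smith-Magenis syndrome. Cells were labelled WT, HET (RAI1+/-) or KO (RAI1-/-) and harvested at day 0, day 3 or day 7 of induction, with 4 biological replicates in each of the 9 groups. The stem cells of all genotypes were grown on Geltrex in mTeSR Plus, with a ROCK inhibitor at plating. The medium for differentiation was Neurobasal-A with B27, GlutaMAX, the growth factors GDNF and NT3, and CultureOne. The labels do not say how the alleles were altered, how many clones stand behind HET and KO, or whether replicates were separate inductions. Each p-value therefore measures the spread between these libraries, and a difference between genotypes cannot be told apart from one between clones.

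A nerve terminal releases transmitter when an action potential lets calcium in. Vesicles are docked and primed by active zone scaffolds such as RIM and by the Munc13 proteins, and SNARE proteins on the vesicle and on the plasma membrane zip together to fuse them. Synaptotagmins sense the calcium, complexins hold and then help the fusion, and dynamin with its partners retrieves the membrane afterwards. Neurons made with NGN2 are glutamatergic-like cells that build these terminals over weeks, so the days sampled here fall early in that course.

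In stem cells and other non-neuronal cells many of these genes are held silent by REST, a repressor that binds a bipartite element whose left part reads TTCAGCACC and whose right part reads GGACAG. NGN2 and related proneural factors bind E-boxes such as CAGATG, and CREB binds TGACGTCA. These letters, the core CAGCACC of the left REST part and a second E-box, CATATG, were searched on both strands in RefSeq promoter windows (250 bases before to 50 after a start, GRCh38.p14), where the core lies inside the longer left part. Of the 47 genes 38 had an entry, and CPLX1, NRXN2, RIMS2, RIMS4, SNAP25, SYN3, SYNGR3, SYT7 and SYT13 had none. Those 38 genes have 59 promoter windows in the table, since a gene can have several starts. TTCAGCACC occurred in 2 of the 59 (3.39%), those of SYN1 and UNC13A, against 0.376% of all 35116 promoters. CAGCACC was found in 13 (22%, against 7.75%), GGACAG in 12 (20.3%, against 20.5%), CAGATG in 10 (16.9%, against 14.7%) and CATATG and TGACGTCA in 1 each (1.69%, against 3.04% and 1.85%). The windows of 4 genes are shown because their genes differ in how they behaved: SYN1 and UNC13A hold the long REST-type letters, RAB3A rose in KO on both later days, and SYT11 was higher than in WT in every comparison.
SYN1: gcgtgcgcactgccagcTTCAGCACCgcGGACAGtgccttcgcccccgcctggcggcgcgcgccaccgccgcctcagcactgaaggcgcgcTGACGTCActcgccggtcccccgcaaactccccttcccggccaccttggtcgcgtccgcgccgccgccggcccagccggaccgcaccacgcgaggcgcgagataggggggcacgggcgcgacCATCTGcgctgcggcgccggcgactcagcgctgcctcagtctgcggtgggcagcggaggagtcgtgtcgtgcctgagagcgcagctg
UNC13A: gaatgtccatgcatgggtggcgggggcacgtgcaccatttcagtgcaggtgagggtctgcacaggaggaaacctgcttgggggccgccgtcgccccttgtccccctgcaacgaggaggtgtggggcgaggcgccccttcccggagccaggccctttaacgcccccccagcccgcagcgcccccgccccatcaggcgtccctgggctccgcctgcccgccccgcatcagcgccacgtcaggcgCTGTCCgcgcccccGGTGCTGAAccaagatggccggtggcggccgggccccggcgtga
RAB3A: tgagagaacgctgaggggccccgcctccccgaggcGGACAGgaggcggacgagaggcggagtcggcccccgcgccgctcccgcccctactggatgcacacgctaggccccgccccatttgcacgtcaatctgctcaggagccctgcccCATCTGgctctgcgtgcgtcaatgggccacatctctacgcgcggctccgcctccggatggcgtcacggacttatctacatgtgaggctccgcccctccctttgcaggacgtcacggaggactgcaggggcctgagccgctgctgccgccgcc
SYT11: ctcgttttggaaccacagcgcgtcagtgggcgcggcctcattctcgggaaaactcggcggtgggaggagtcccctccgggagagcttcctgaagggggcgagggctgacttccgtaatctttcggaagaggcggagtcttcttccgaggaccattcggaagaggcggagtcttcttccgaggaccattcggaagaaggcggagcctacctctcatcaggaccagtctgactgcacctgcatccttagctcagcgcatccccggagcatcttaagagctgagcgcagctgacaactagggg
Capitals mark every match to the letters searched, on either strand. The SYN1 window is chrX:47619808-47620107 on the minus strand. Its TTCAGCACC begins 233 bases before the start and is followed after 2 bases by GGACAG, with TGACGTCA further on and then an E-box, CATCTG, on the other strand. The UNC13A window is chr19:17688305-17688604, minus strand, where CTGTCC and GGTGCTGAA, the same letters on the other strand, lie 8 bases apart around the start. RAB3A (chr19:18203993-18204292, minus strand) holds GGACAG and CATCTG, and SYT11 (chr1:155859317-155859616, plus strand) holds none of the letters searched. A match is a description of the sequence, and binding was not measured.

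Library totals ran from 23948079 to 56678796 counts. RAI1 RNA was not lower in the libraries labelled HET or KO: at day 7 its mean was 52.2 ± 15.9 CPM (SD, n = 4) in WT, 73.2 ± 16.2 in HET and 84.9 ± 14.5 in KO, so these counts do not check the genotype. Summed CPM of 10 neuronal markers (TUBB3, MAP2 and others) rose from 248 to 537 in WT at day 0 to 6688 to 13816 at day 7, and the 7 stem cell markers fell from 2214 to 2784 to 49.9 to 65.3. The defining astrocyte genes GFAP, AQP4 and ALDH1L1 were each below a mean of 1 CPM in every group from day 3, while the fourth astrocyte gene of the list, SLC1A2, a glutamate transporter, had group means from 24.6 to 349 CPM there. Of the oligodendrocyte genes MOG and MAG were below 1 CPM in every group, while MBP had group means from 14.5 to 32.2 CPM from day 3 and CNP from 46.8 to 89.9 CPM over all groups. A set of 5 small structural RNAs took 2.84% to 27.47% of counts, most in HET day 7 replicate 1 (27.47%) and WT day 7 replicate 1 (25.58%). WT day 7 replicate 3 was close, at 23.52%. Dixon's rule, described below, set apart 5 of the 47 genes in HET day 7 replicate 1 and 3 in WT day 7 replicate 1. It also set apart 3 each in HET day 0 replicate 4 and HET day 3 replicate 4, which were not left out as a pair. Day 7 counts are given with and without the first replicates of WT and HET. The same genes set these libraries apart, so the fit without them is no independent test of these genes. In bulk RNA, fewer cells of a type and less RNA per cell cannot be told apart.

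In WT cells, 24 of 46 tested genes rose between day 0 and day 3 and 11 fell, where 31.2% of all tested genes rose and 28.7% fell. On TPM, where the median of all genes itself lay at -0.83 log2, 12 of 40 tested rose and 15 fell. The shares of all genes on that scale are not given. From day 3 to day 7, 34 rose and 1 fell, against 23.3% and 22.9% of all genes, with a median change of 1.61 log2 (0.013 over all genes). The highest WT mean stood at day 7 for 39 of the 47 genes (83%, against 36.9% of all genes). Genes with a mean of at least 1 CPM numbered 39 at day 0, 43 at day 3 and 45 at day 7. CPM here is a gene's counts relative to its library's total, scaled over all 36 libraries, and differences are log2 fold changes with their standard error from edgeR.

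CPLX1, a complexin that clamps and then promotes fusion, was at 0.3001, 0.118, 0.118 and 0.238 CPM at day 0 and 37.4, 25.9, 26.8 and 25.6 at day 3 in WT, a rise of 7.24 ± 0.30 (adjusted p = 3.9e-10). CPLX2 rose by 6.08 ± 0.28 (adjusted p = 9.91e-10), SNAP25 by 4.84 ± 0.25 (adjusted p = 2.42e-09) and SYP by 4.32 ± 0.22 (adjusted p = 2.01e-09) in the same interval. DNM1, the neuronal dynamin that cuts endocytic vesicles from the membrane, rose by 3.52 ± 0.18 to 444, 305, 296 and 359 CPM and then fell to 176, 164, 168 and 158. Its change of -1.07 ± 0.16 (adjusted p = 9.59e-05) was the single fall among the 46 genes between day 3 and day 7. After day 3 the scaffold genes RIMS3, RIMS1 and PPFIA2 and the vesicle GTPase gene RAB3A rose. RIMS3 rose by 4.19 ± 0.28 (adjusted p = 4.43e-08), RIMS1 by 3.6 ± 0.24 (adjusted p = 4.47e-08), PPFIA2 by 4.5 ± 0.37 (adjusted p = 3.41e-07) and RAB3A by 3.36 ± 0.26 (adjusted p = 1.71e-07). A further group was read in stem cells and dipped at day 3 before rising again. SV2A, the vesicle glycoprotein that binds the drug levetiracetam, fell by 1.85 log2 and then rose by 1.63 ± 0.19 (adjusted p = 9.65e-06). RAB3B was at 116, 104, 113 and 129.6 CPM at day 0, 8.73, 16.6, 11.2 and 23.02 at day 3 and 30.7, 62.02, 67.8 and 37.3 at day 7, so its day 0 libraries lay above all later ones.

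In the stem cells, before induction, 2 of the 45 tested genes differed in KO and the same 2 in HET, SYT11 and SYT5. All genes were called at 1.66% higher and 0.416% lower in KO and at 1.22% and 0.411% in HET. SYT11, a synaptotagmin that does not bind calcium and restrains endocytosis, was at 2.18, 5.02, 3.47 and 4.41 CPM in WT, 34.9, 41.01, 29.7 and 34.5 in HET and 7.03, 13.6, 12.2 and 8.52 in KO. The 3 genotypes did not overlap, and HET stood highest. Its difference from WT was 3.23 ± 0.27 (adjusted p = 1.11e-05) in HET and 1.48 ± 0.26 (adjusted p = 0.00724) in KO, and KO less HET was -1.74 ± 0.25 (adjusted p = 0.0029). SYT5, a calcium-binding synaptotagmin, was at 3.902, 3.18, 2.93 and 3.16 CPM in WT, 0.493, 0.703, 0.384 and 0.351 in HET and 1.302, 1.14, 1.21 and 1.46 in KO, in the order WT, KO, HET with no overlap. It fell by 2.75 ± 0.23 log2 in HET (adjusted p = 1.05e-05) and by 1.33 ± 0.21 in KO (adjusted p = 0.00346), and KO was above HET by 1.42 ± 0.23 (adjusted p = 0.00724). Between KO and HET 0.524% of all genes were called higher and 0.333% lower. The calls against WT held without each library in turn. Same-numbered KO and WT libraries deviated together here, and with the number as a block these calls held too. On TPM the KO call of SYT5 was lost. Neuronal marker sums at day 0 were 248 to 537 CPM in WT, 372 to 641 in HET and 357 to 744 in KO, with no marker of that list called.

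By day 3 the KO cells carried more RNA of most release genes than WT. Of 45 tested genes 29 were higher in KO and 2 lower (SYT2 and SYN2), where 12.6% of all tested genes were higher and 8.93% lower. All 4 KO libraries lay above all 4 WT libraries for 29 genes and below for 2, against 24.9% of all genes with no overlap in either direction. These were not exactly the genes called, since SYT2 and RIMS4 were called with overlapping libraries. The median difference was 0.96 log2 (-0.049 over all genes). KO and WT libraries with the same replicate number deviated together at day 3, although only 5 of the 8 correlated best with their own number. With the number as a block 31 genes were higher and 2 lower. At day 7, 28 of 47 were higher and 2 lower (CPLX1 and STX1A), where 17.0% of all genes were higher and 15.6% lower, and the median difference was 1.22 log2 (-0.044). No overlap was found for 30 of the 47 at day 7, against 39.8% of all genes. These were not exactly the genes called either, since VAMP2 was among them without a call. Without the first replicates of WT and HET, which stood apart, 30 genes were higher and 3 lower. RIMS3 then joined the lower genes. The shares of all genes given here are from the fit with all 12 libraries of a day and no block. They are not given for the blocked and reduced fits, so those counts have no background beside them.

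In HET cells 7 of 45 genes were higher at day 3 (background 2.52%) and none lower (background 0.761%) by edgeR, with 3 lower at an unadjusted p under 0.05 and 0 lower by DESeq2. Same-numbered HET and WT libraries deviated together too, although only 5 of the 8 correlated best with their own number. With the number as a block 19 genes were higher and 1 (SYN2) lower. Leaving out HET replicate 4 gave 15 calls, and leaving out each of the other 7 libraries gave 3 to 5. At day 7, 20 of 47 were higher in HET (background 8.31%) and none lower (background 6.1%) by edgeR, where 0 were lower at an unadjusted p under 0.05 and 0 by DESeq2. Without the first replicates of WT and HET 26 were higher and 2 lower, CPLX1 and STX1A. For both of these HET replicate 1 lay above WT, and the share of all genes called in that fit is not given. Without HET replicate 3 alone 12 were called, and without HET replicate 2 alone 13. The median HET difference was 0.54 log2 at day 3 and 0.71 at day 7. HET and KO were compared with the same WT libraries, so their differences share them.

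Markers of several cell types also differed between the genotypes. Neuronal marker sums at day 3 were 1421 to 1779 CPM in WT, 2053 to 5252 in HET and 5549 to 9146 in KO, and all 10 markers were higher in KO. At day 7 they were 6688 to 13816, 14316 to 18916 and 16284 to 22062 CPM, and 6 of 10 were higher in KO and 4 of 10 in HET. None was called lower, although in KO the means of TUBB3 (3036 CPM, 3744 in WT) and ELAVL3 (279 CPM, 297 in WT) lay below those of WT. Sums of 10 markers of dividing cells at day 7 were 61.3 to 301 CPM in WT, 25.8 to 50.8 in HET and 26.4 to 32.1 in KO, with all 10 lower in both mutants. Genes of peripheral neurons (PRPH, POU4F1 and ISL1) summed at day 3 to 8.96 to 12.8 CPM in WT, 15.1 to 49.2 in HET and 96.4 to 231 in KO. The 7 stem cell markers summed at day 7 to 49.9 to 65.3 CPM in WT, 77.7 to 161 in HET and 236 to 316 in KO, and LIN28A, with means of 23.8, 102 and 249 CPM, made up most of the sum in HET and KO. DPPA4 had means of 32.6, 15.6 and 6.68 CPM and PRDM14 of 1.44, 13.9 and 8.77, while POU5F1, NANOG, TDGF1 and ZFP42 were below 1 CPM in each group. Against WT 2 of the 7 were called higher and 1 lower in KO. The 4 astrocyte genes summed to 75.0 to 95.5 CPM in WT, 179 to 394 in HET and 284 to 396 in KO, nearly all of it SLC1A2, with GFAP, AQP4 and ALDH1L1 below 1 CPM. The 5 genes of mesenchyme, of which COL1A1 and COL1A2 were the ones with a mean above 1 CPM in any genotype at day 7, summed to 26.2 to 35.0 CPM in WT, 1.13 to 29.1 in HET and 0.903 to 3.24 in KO. The 5 neural progenitor genes summed at day 7 to 293 to 545 CPM in WT, 426 to 686 in HET and 159 to 386 in KO. Of them 2 were called lower in KO and 1 in HET, and PAX6 had means of 21.9, 9.80 and 1.64 CPM. The 4 neural crest genes summed to 4.20 to 6.06, 2.83 to 5.34 and 4.01 to 11.2 CPM, with 1 called higher and 1 lower in KO. The part of these markers in the differences of the release genes was not tested.

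**Figure D1:**
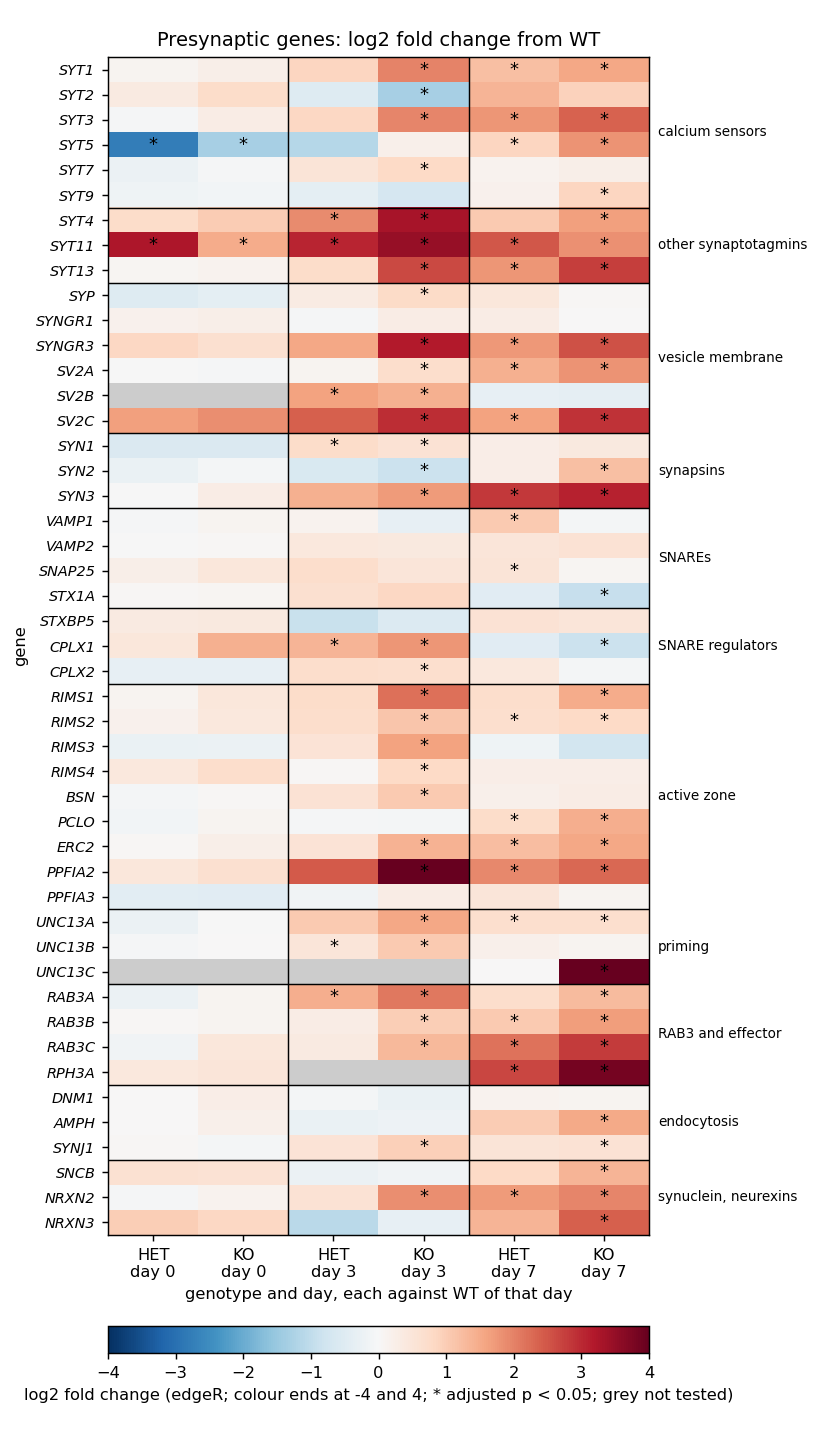
Log2 fold change of each of the 47 genes (rows, grouped by role) in HET and in KO against WT of the same day (columns), from edgeR. Red is higher than WT, blue lower, an asterisk marks an adjusted p under 0.05 and grey a gene not tested. In KO 29 genes carry a mark in red at day 3 and 28 at day 7, and in HET 7 and 20.

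The scale of the data matters for these counts. On deposited TPM, with log2(TPM + 1) and limma, the median of all genes itself lay above 0 in KO by 0.37 at day 3 and 0.40 at day 7, and in HET by 0.26 and 0.72. On that scale fewer genes passed the filter, 38 at day 3 and 45 at day 7. The genes called were 11 higher in KO at day 3, 20 higher at day 7 and 13 higher in HET at day 7, with none lower. In HET at day 3 there were 0 (7 higher at an unadjusted p under 0.05). SYT3, SV2C and RAB3B, called in KO at day 3 on counts, were not tested on TPM that day. The 11 at day 3 were SYT1, SYT4, SYT11, SYT13, SYNGR3, CPLX1, RIMS1, RIMS3, PPFIA2, RAB3A and NRXN2. The shares of all genes called on TPM are not given, so these counts have no background beside them. No called difference from WT changed direction in any alternative.

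SYT1, the main fast sensor of forebrain synapses, was at 35.8, 56.1, 47.3 and 46.8 CPM in WT, 55.2, 112, 113 and 52.9 in HET and 230.2, 237, 173 and 111 in KO at day 3. Every KO library lay above every WT library, and HET overlapped WT. KO exceeded WT by 1.99 ± 0.29 (adjusted p = 0.000379) and HET by 1.14 ± 0.29 (adjusted p = 0.0382), while HET less WT was 0.85 ± 0.28 (adjusted p = 0.155), and 0.78 (adjusted p = 0.0494) with the replicate block. At day 7 SYT1 stood at 94.7, 144, 156 and 192 CPM in WT, 138, 453, 425 and 346 in HET and 449, 500.0, 406 and 356 in KO, again with no overlap between KO and WT. HET replicate 1 lay inside the WT range and its other replicates above it. The differences from WT were 1.54 ± 0.31 (adjusted p = 0.00267) in KO and 1.2 ± 0.31 (adjusted p = 0.0205) in HET. The HET call was lost without WT replicates 1 or 2 or HET replicates 2 or 3 (adjusted p = 0.0516 to 0.0669).

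SYT3, a high-affinity sensor of slow release and of receptor traffic, was scarce in all cells and higher in KO on both later days. Its libraries at day 7 were at 2.72, 7.89, 8.02 and 8.66 CPM in WT, 21.2, 27.3, 28.2 and 17.4 in HET and 34.9, 37.2, 42.8 and 24.4 in KO, and both mutants lay above all WT libraries. The differences were 2.35 ± 0.31 (adjusted p = 0.000211) in KO and 1.78 ± 0.31 (adjusted p = 0.00301) in HET, after 1.94 ± 0.29 (adjusted p = 0.000403) in KO at day 3. SYT5, lower in both mutants at day 0, was higher at day 7, with 6.89, 12.01, 11.3 and 11.9 CPM in WT, 20.4, 20.3, 25.5 and 11.3 in HET and 40.1, 34.1, 40.9 and 30.6 in KO. KO lay above all of WT and HET overlapped it. The KO difference was 1.78 ± 0.24 (adjusted p = 0.000241) and the HET difference 0.87 ± 0.24 (adjusted p = 0.0273). The latter was lost without WT replicates 1 or 3 or HET replicates 2 or 3 (adjusted p = 0.0564 to 0.097). SYT7, the sensor of asynchronous release and facilitation, was called at day 3 and not at day 7. It was at 129.7, 123, 103 and 159 CPM in WT, 175, 177, 169.8 and 199.6 in HET and 203, 251, 216 and 233 in KO at day 3, a KO difference of 0.79 ± 0.16 (adjusted p = 0.00331), and at day 7 the groups overlapped, with a difference of 0.24 ± 0.26 (adjusted p = 0.49). The change of the difference was -0.56 ± 0.33 (adjusted p = 0.257).

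SYT2, the fast sensor of hindbrain and neuromuscular synapses, went the other way at day 3. It ranged from 9.99 to 29.9 CPM in WT and from 4.19 to 10.1 in KO, a fall of 1.34 ± 0.39 log2 (adjusted p = 0.0264) with overlapping libraries. That call was lost without WT replicates 1 or 2 or KO replicates 1 or 3 (adjusted p = 0.0592 to 0.0973). SYT9, another fast sensor, was below 10 CPM throughout and higher in KO at day 7 by 0.87 ± 0.28 (adjusted p = 0.0295), a call lost without WT replicates 1, 2 or 4 or KO replicates 1, 2 or 3 (adjusted p = 0.0581 to 0.0942).

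The 3 synaptotagmins that do not sense calcium were all higher in KO at day 3 and at day 7, against 12.6% and 17.0% of all genes. SYT11 was at 12.97, 19.1, 16.9 and 12.9 CPM in WT, 92.6, 141, 185 and 88.6 in HET and 258, 213, 151 and 87.6 in KO at day 3 and at 52.5, 92.7, 118 and 113 CPM in WT, 478, 574, 510.1 and 542 in HET and 354, 343, 331 and 313 in KO at day 7. On both days HET and KO lay above every WT library. Its difference was 3.5 ± 0.34 (adjusted p = 1.77e-05) in KO and 3.04 ± 0.33 (adjusted p = 0.00013) in HET at day 3. At day 7 it was 1.83 ± 0.21 (adjusted p = 8.02e-05) and 2.48 ± 0.21 (adjusted p = 1.74e-05), with every HET library above every KO library. SYT11 was the one gene of the 47 called in each of the 6 comparisons with WT, and no left-out library changed that.

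SYT4, an activity-linked isoform on dense-core vesicles, was at 5.49, 11.97, 14.2 and 5.51 CPM in WT, 29.96, 36.4, 60.2 and 10.5 in HET and 144, 81.3, 97.4 and 48.5 in KO at day 3. KO lay wholly above WT, and HET replicate 4 lay inside the WT range. The KO difference was 3.3 ± 0.50 (adjusted p = 0.000482). The HET difference was 1.88 ± 0.48 (adjusted p = 0.0487), lost without WT replicates 1, 2, 3 or 4 or HET replicates 1, 2 or 3 (adjusted p = 0.0635 to 0.174). At day 7 SYT4 reached 189, 270.1, 277 and 264 CPM in WT, 201, 614, 869 and 394 in HET and 899.9, 911, 813 and 539 in KO, with a KO difference of 1.65 ± 0.35 (adjusted p = 0.00341) and a HET difference of 1.04 ± 0.34 (adjusted p = 0.0595), the latter 1.22 (adjusted p = 0.00385) without the first replicates of WT and HET. SYT13, a further isoform without calcium binding, was at 24.2, 57.9, 77.2 and 32.6 CPM in WT, 106, 190.4, 294 and 71.4 in HET and 344, 347, 399 and 213 in KO at day 7. Every KO library exceeded every WT library, and HET overlapped WT in 1 library. KO differed from WT by 2.76 ± 0.45 (adjusted p = 0.000711) and HET by 1.78 ± 0.43 (adjusted p = 0.0162), the latter lost without HET replicate 3 (adjusted p = 0.0575). At day 3 the KO difference was 2.64 ± 0.56 (adjusted p = 0.00457).

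**Figure D2:**
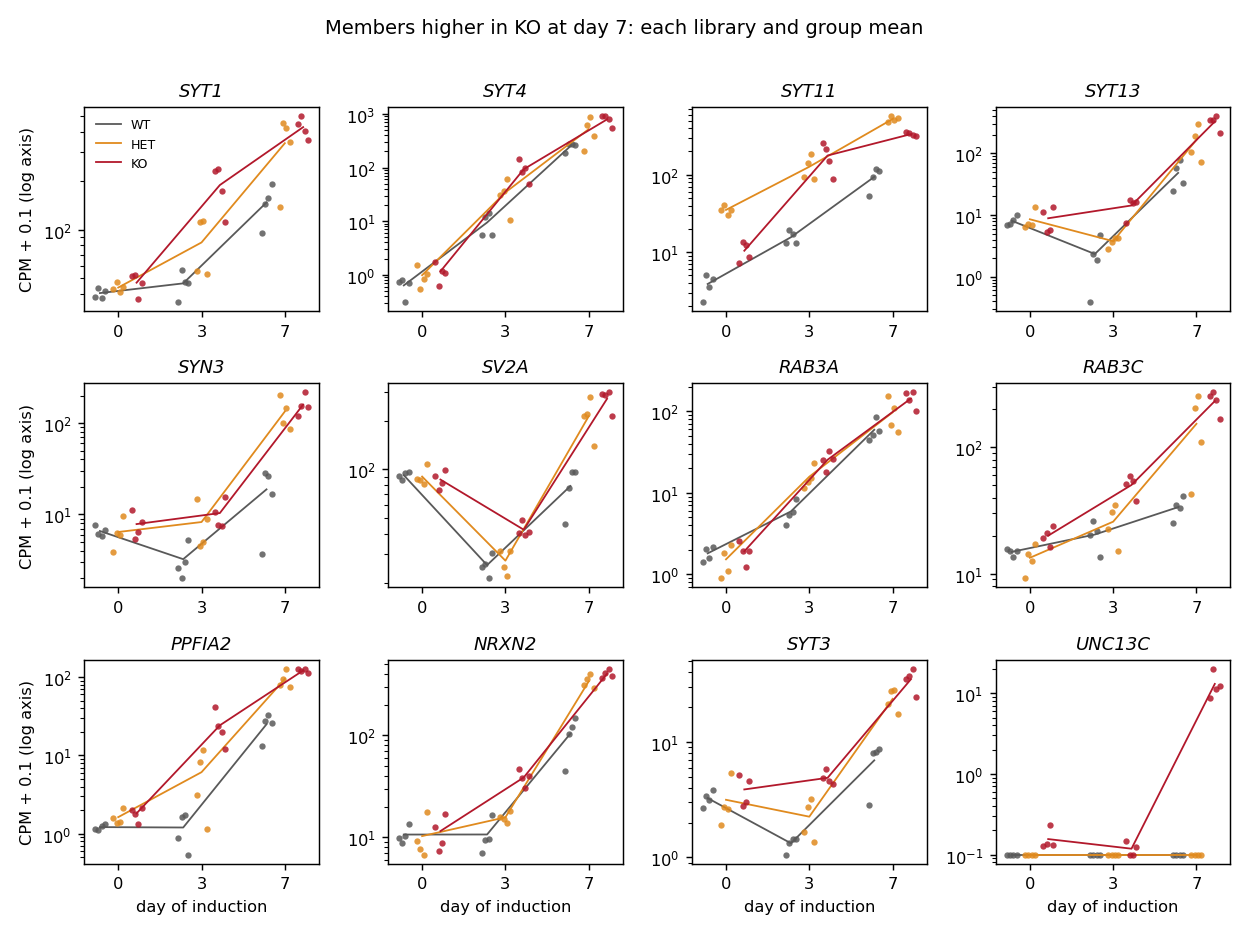
CPM + 0.1 on a log axis of 12 genes that were higher in KO at day 7, by day of induction. Points are single libraries (4 per group), lines join group means, and colours mark WT (grey), HET (orange) and KO (red). SYT11 was already apart in HET at day 0, RAB3A and PPFIA2 parted at day 3, and UNC13C was read at 8.65 to 19.99 CPM in KO at day 7 and not counted in WT or HET.

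Of the 6 vesicle membrane genes 5 were higher in KO at day 3 and 3 at day 7, against 12.6% and 17.0% of all genes. SV2A was at 46.2, 77.1, 95.7 and 96.4 CPM in WT, 214, 220.3, 278 and 138 in HET and 293, 288, 298 and 212 in KO at day 7, and both mutants lay above all of WT. KO differed by 1.79 ± 0.25 (adjusted p = 0.00028) and HET by 1.43 ± 0.25 (adjusted p = 0.003), where the KO difference at day 3 was 0.70 ± 0.17 (adjusted p = 0.0102). SV2C, the paralog that serves botulinum toxin A as receptor, was at 0.68, 2.99, 2.63 and 4.098 CPM in WT, 7.09, 11.2, 8.49 and 4.84 in HET and 40.1, 14.5, 13.1 and 11.01 in KO. The KO difference was 2.9 ± 0.52 (adjusted p = 0.00121) and the libraries did not overlap. The HET difference was 1.6 ± 0.50 (adjusted p = 0.0491), lost without WT replicates 1, 2 or 3 or HET replicates 2 or 3 (adjusted p = 0.0861 to 0.127). SYNGR3, a synaptogyrin that binds the dopamine transporter, was at 2.72, 4.81, 10.8 and 6.68 CPM in WT, 36.1, 16.5, 21.5 and 8.17 in HET and 42.2, 34.9, 41.1 and 27.4 in KO, a KO difference of 2.54 ± 0.44 (adjusted p = 0.00102) and a HET difference of 1.72 ± 0.43 (adjusted p = 0.0182). The HET libraries overlapped WT in 1 case, and that call was lost without WT replicate 2 (adjusted p = 0.0546). At day 3 the KO differences of SV2C and SYNGR3 were 2.96 ± 0.64 (adjusted p = 0.00502) and 3.16 ± 0.60 (adjusted p = 0.00229).

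SYP and SV2B were called at day 3 and not at day 7. SYP, synaptophysin, was at 147, 129, 189 and 159 CPM in WT, 156, 183, 214 and 217 in HET and 353, 197, 237 and 283 in KO at day 3, a KO difference of 0.76 ± 0.21 (adjusted p = 0.0197) with no overlap. The call was lost without WT replicates 1 or 2 or KO replicate 1 (adjusted p = 0.0551 to 0.0686). At day 7 SYP was at 246, 168, 252 and 303 CPM in WT, 570.2, 254, 251 and 247 in HET and 248, 248, 257 and 249 in KO, the KO libraries lay within the WT range, and the difference was 0.042 ± 0.27 (adjusted p = 0.917). SV2B was higher at day 3 in KO by 1.43 ± 0.36 (adjusted p = 0.0124) and in HET by 1.6 ± 0.36 (adjusted p = 0.0282), the latter lost without WT replicates 1, 2 or 4 or HET replicates 2 or 3 (adjusted p = 0.0606 to 0.0969). At day 7 its KO difference was -0.36 ± 0.22 (adjusted p = 0.228). SYNGR1 passed no test against WT, with group means from 10.9 to 155 CPM.

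The synapsins, which tether the reserve pool of vesicles to actin, split by paralog. SYN3 was at 3.64, 28.6, 26.1 and 16.5 CPM in WT, 201, 100.5, 148 and 85.7 in HET and 118, 152, 216 and 151 in KO at day 7. Both mutants lay far above all WT libraries, among which replicate 1 was lowest. The differences were 3.09 ± 0.50 (adjusted p = 0.000682) in KO and 2.83 ± 0.49 (adjusted p = 0.0031) in HET, and 1.69 ± 0.43 (adjusted p = 0.0133) in KO at day 3. SYN1, whose promoter is printed above, was at 17.4, 14.6, 11.96 and 12.98 CPM in WT, 17.3, 29.4, 24.7 and 21.6 in HET and 17.4, 22.8, 24.1 and 21.8 in KO at day 3. The KO libraries ran from 17.4 CPM, just above the highest WT library, and the difference was 0.57 ± 0.18 (adjusted p = 0.0405) in KO and 0.72 ± 0.18 (adjusted p = 0.0496) in HET. The KO call was lost without WT replicates 2, 3 or 4 or KO replicates 2 or 3 (adjusted p = 0.0751 to 0.101). Without WT replicates 1, 2, 3 or 4 or HET replicates 2 or 3 (adjusted p = 0.0547 to 0.179) the HET call was lost. At day 7 SYN1 was at 30.3, 49.99, 61.97 and 57.1 CPM in WT and 56.5, 73.4, 74 and 56.9 in KO, and the difference was 0.38 ± 0.22 (adjusted p = 0.196).

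SYN2 changed direction between the days. It was at 8.42, 7.69, 6.09 and 8.92 CPM in WT and 3.85, 4.66, 3.26 and 5.77 in KO at day 3, all KO libraries lying below all WT libraries, and at 4.82, 9.71, 8.23 and 7.52 CPM in WT and 19.5, 17.7, 21.7 and 12.1 in KO at day 7, all lying above. The KO differences were -0.85 ± 0.27 (adjusted p = 0.0408) and 1.22 ± 0.32 (adjusted p = 0.0107), and the change of the difference between the days was 2.05 ± 0.38 (adjusted p = 0.000203). The day 3 call was lost without WT replicates 1, 2 or 4 or KO replicates 1, 2 or 3 (adjusted p = 0.0682 to 0.114). Each synapsin gene overlaps a TIMP gene (SYN1 with TIMP1, SYN2 with TIMP4, SYN3 with TIMP3, per GENCODE 29), and whether the counting used strand is not given in the sources used here.

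Of the 7 core SNAREs and SNARE regulators, 2 were lower in KO at day 7, against 15.6% of all genes. The other 5 passed no test there. STX1A, the plasma membrane syntaxin, was at 69.3, 58.2, 70.6 and 70.7 CPM in WT, 89.1, 36.9, 27.2 and 45.6 in HET and 34.2, 34.7, 36.1 and 38.2 in KO at day 7. All 4 KO libraries lay below all WT libraries, and so did 3 of 4 HET libraries, with HET replicate 1 above them. The KO difference was -0.91 ± 0.28 (adjusted p = 0.0251), lost without WT replicates 1 or 3 or KO replicates 1, 2 or 3 (adjusted p = 0.0526 to 0.0647). In HET it was -0.44 ± 0.28 (adjusted p = 0.327), and -0.85 (adjusted p = 0.00247) without the first replicates of WT and HET. That fit leaves out the HET library of STX1A that lay above WT, so it is no independent test. At day 3 the edgeR fit without a block called none of the 4 SNARE genes in either mutant. With the replicate block STX1A was higher there by 0.83 (adjusted p = 0.00109) in KO and 0.61 (adjusted p = 0.0244) in HET. CPLX1 was at 37.4, 25.9, 26.8 and 25.6 CPM in WT, 82.5, 71.1, 78.3 and 60.5 in HET and 89.1, 77.04, 113 and 118 in KO at day 3 and at 57.9, 63.3, 80.5 and 95.3 CPM in WT, 97, 41.8, 36.4 and 42.3 in HET and 42.6, 40.8, 39.2 and 39.8 in KO at day 7. At day 3 both mutants lay above every WT library, and at day 7 all KO libraries and 3 HET libraries lay below every WT library.

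CPLX1 was higher at day 3 by 1.76 ± 0.19 (adjusted p = 3.74e-05) in KO and 1.35 ± 0.19 (adjusted p = 0.000881) in HET. At day 7 the KO difference was -0.87 ± 0.28 (adjusted p = 0.0281), lost without WT replicates 3 or 4 or KO replicates 1, 2, 3 or 4 (adjusted p = 0.0551 to 0.0738). The HET difference was -0.45 ± 0.28 (adjusted p = 0.304), and -0.97 (adjusted p = 0.00035) without the first replicates of WT and HET. That fit leaves out the HET library of CPLX1 that lay above WT, so it is no independent test. The KO difference changed between the days by -2.65 ± 0.34 (adjusted p = 1.17e-06). CPLX2, the second complexin, was at 221, 147, 144 and 122 CPM in WT and 223, 302, 234 and 274 in KO at day 3, a difference of 0.68 ± 0.19 (adjusted p = 0.019) with no overlap, lost without WT replicates 2, 3 or 4 or KO replicate 2 (adjusted p = 0.0515 to 0.0608). At day 7 its KO difference was -0.068 ± 0.27 (adjusted p = 0.87).

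SNAP25, the other plasma membrane SNARE, was at 88.2, 97.2, 101 and 93.3 CPM in WT, 110.5, 145, 141 and 151 in HET and 95.6, 94.2, 95.9 and 119.9 in KO at day 7. HET lay above every WT library and KO did not. The HET difference was 0.52 ± 0.14 (adjusted p = 0.0257), lost without WT replicates 1, 2, 3 or 4 or HET replicates 2, 3 or 4 (adjusted p = 0.0504 to 0.0731), and the KO difference was 0.09 ± 0.14 (adjusted p = 0.648). At day 3, with the replicate block, SNAP25 was higher by 0.52 (adjusted p = 0.021) in KO and 0.69 (adjusted p = 0.0176) in HET. VAMP1 and VAMP2 passed no test against WT in that fit. VAMP1, a vesicle SNARE of spinal and brainstem neurons, was at 7.18, 6.63, 8.05 and 8.73 CPM in WT, 16.4, 18.6, 12.2 and 15.9 in HET and 5.85, 6.89, 6.54 and 9.79 in KO. HET stood above every WT and KO library. It was higher in HET than in WT by 1.03 ± 0.20 (adjusted p = 0.0056), and KO less HET was -1.11 ± 0.20 (adjusted p = 0.0154). Without KO replicates 1, 2 or 3 the KO and HET libraries gave no call for VAMP1. VAMP2, the main vesicle SNARE of the forebrain, passed no genotype test with all libraries. It was at 92.4, 105, 143 and 130.2 CPM in WT, 245, 131, 168 and 122 in HET and 183, 187, 194 and 146 in KO at day 7. All KO libraries exceeded the WT libraries there, with a difference of 0.58 ± 0.22 (adjusted p = 0.0566), or 0.51 (adjusted p = 0.0156) without the first replicates of WT and HET. STXBP5, tomosyn, which blocks SNARE assembly, passed none either, with group means from 11.9 to 43.8 CPM and a KO difference of 0.49 ± 0.21 (adjusted p = 0.0977) at day 7. It reached 0.69 (adjusted p = 0.000526) without the first replicates of WT and HET.

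**Figure D3:**
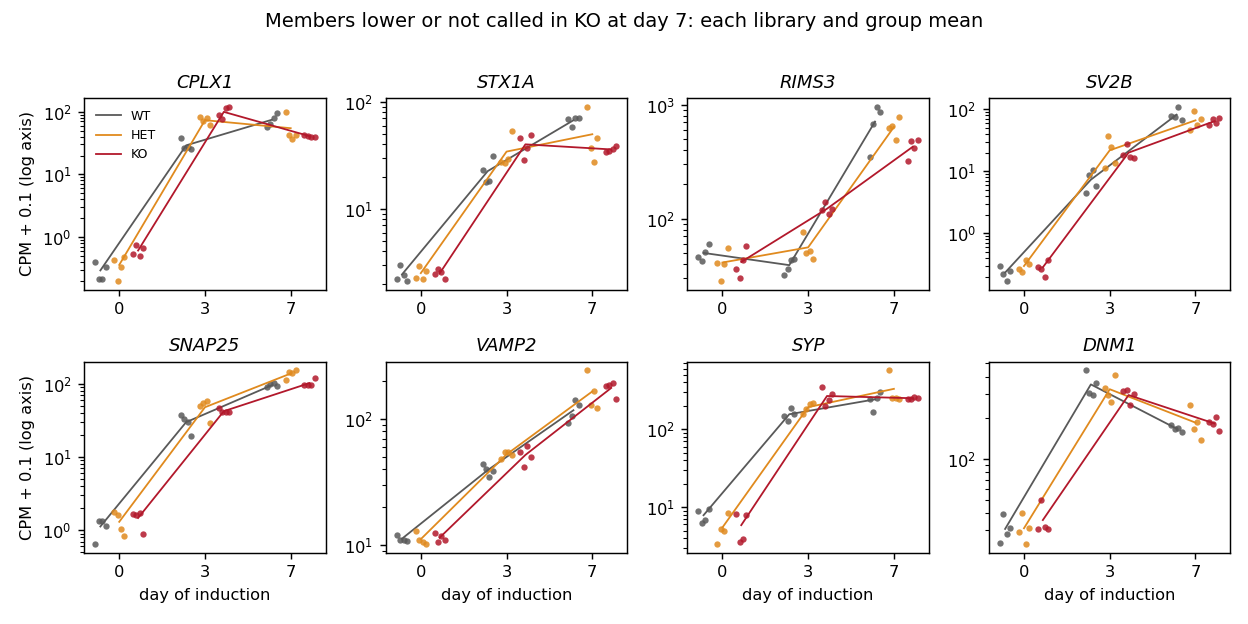
CPM + 0.1 on a log axis of 8 genes that were lower in KO at day 7 (CPLX1 and STX1A) or not called there, by day of induction, with points for single libraries and lines for the means of 4. CPLX1, RIMS3, SV2B and SYP were called higher in KO than in WT at day 3. At day 7 the KO points of CPLX1 and STX1A lie below all WT points.

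Of 9 active zone genes 7 were higher in KO at day 3 and 5 at day 7, against 12.6% and 17.0% of all genes. The largest difference was that of PPFIA2, a liprin-alpha that assembles the active zone, at 0.792, 1.55, 1.62 and 0.442 CPM in WT, 3.06, 8.16, 11.8 and 1.04 in HET and 41.03, 23.6, 19.96 and 11.9 in KO at day 3. KO lay wholly above WT, and HET replicate 4 within the WT range. The differences were 4.43 ± 0.68 (adjusted p = 0.000508) in KO and 2.44 ± 0.63 (adjusted p = 0.054) in HET, the latter 2.3 (adjusted p = 0.00662) with the replicate block. At day 7 PPFIA2 was at 13.2, 27.7, 32.9 and 25.7 CPM in WT, 80.04, 95.9, 127 and 75 in HET and 127, 119, 127 and 112 in KO, 2.28 ± 0.25 (adjusted p = 5.68e-05) in KO and 1.92 ± 0.24 (adjusted p = 0.000464) in HET, both without overlap with WT. RIMS1, a RIM scaffold that couples vesicles to calcium channels, was at 2.101, 2.23, 2.76 and 2.73 CPM in WT and 14.8, 10.9, 10.9 and 9.74 in KO at day 3 and 18.2, 30.1, 39.5 and 31.4 CPM in WT and 91.3, 97.2, 80.6 and 64.8 in KO at day 7. KO libraries lay above WT on both days, by 2.22 ± 0.28 (adjusted p = 0.000137) and 1.48 ± 0.23 (adjusted p = 0.000597). ERC2, an ELKS-family scaffold, was higher in KO by 1.39 ± 0.17 (adjusted p = 9.05e-05) at day 3 and 1.56 ± 0.22 (adjusted p = 0.000284) at day 7, and in HET at day 7 by 1.24 ± 0.22 (adjusted p = 0.00308).

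RIMS3, a short RIM with only the last C2 domain, was higher in KO at day 3 and not called at day 7. It was at 31.95, 36.2, 43.4 and 44.1 CPM in WT, 76.8, 50.02, 51.9 and 44.4 in HET and 119, 139, 110.0 and 120.3 in KO at day 3, every KO library above WT, and at 346, 679, 951 and 864 CPM in WT, 619, 648, 492 and 786 in HET and 317, 477, 420.4 and 492 in KO at day 7. The KO difference was 1.62 ± 0.19 (adjusted p = 6.36e-05) and then -0.73 ± 0.27 (adjusted p = 0.0552), or -0.94 (adjusted p = 0.00233) without the first replicates. The change of the difference was -2.38 ± 0.34 (adjusted p = 4.77e-06). RIMS4, its close relative, was at 120.0, 111, 104 and 67.1 CPM in WT and 269, 171, 143 and 117 in KO at day 3, with overlap and a difference of 0.78 ± 0.26 (adjusted p = 0.0437), lost without WT replicates 1, 2, 3 or 4 or KO replicates 1 or 2 (adjusted p = 0.0565 to 0.16). RIMS2 was higher in KO by 1.1 ± 0.24 (adjusted p = 0.00598) and 0.80 ± 0.18 (adjusted p = 0.00475) on the 2 days, and in HET by 0.66 ± 0.18 (adjusted p = 0.0254) at day 7, lost without WT replicates 1, 2 or 3 or HET replicates 2, 3 or 4 (adjusted p = 0.0595 to 0.0875).

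The giant scaffolds differed in timing. BSN, bassoon, was higher in KO at day 3 by 1.06 ± 0.19 (adjusted p = 0.00178), and at day 7 its difference was 0.28 ± 0.18 (adjusted p = 0.251). PCLO, piccolo, overlapped at day 3 (-0.083 ± 0.38 (adjusted p = 0.895)), and at day 7 its 4 KO libraries (190 to 249 CPM) lay above the WT libraries (62.5 to 106), by 1.44 ± 0.21 (adjusted p = 0.000389). Its HET difference at day 7 was 0.73 ± 0.21 (adjusted p = 0.034), lost without WT replicates 1, 2 or 4 or HET replicates 2 or 3 (adjusted p = 0.0611 to 0.122). PPFIA3, another liprin-alpha, passed no test, with a KO difference of 0.28 ± 0.23 (adjusted p = 0.406) at day 3 and 0.12 ± 0.28 (adjusted p = 0.781) at day 7.

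The 3 Munc13 genes encode proteins that prime docked vesicles. UNC13A was at 43.3, 34.6, 29.7 and 20.4 CPM in WT, 61.6, 86.1, 77.7 and 35.8 in HET and 98.7, 129, 83.6 and 72.6 in KO at day 3. All KO libraries lay above all WT libraries, and HET overlapped WT. The differences were 1.56 ± 0.28 (adjusted p = 0.00136) in KO and 1.04 ± 0.27 (adjusted p = 0.0562) in HET, the latter 1.03 (adjusted p = 0.00186) with the replicate block. At day 7 they were 0.68 ± 0.16 (adjusted p = 0.00572) and 0.66 ± 0.16 (adjusted p = 0.014), with no overlap with WT for either. UNC13B, a ubiquitous paralog, was at 71.4, 69.6, 63.2 and 77.5 CPM in WT, 89.1, 103, 109.6 and 91.1 in HET and 149, 158, 145 and 137 in KO at day 3, in the order WT, HET, KO with no overlap. KO differed from WT by 1.04 ± 0.13 (adjusted p = 9.27e-05) and from HET by 0.54 ± 0.13 (adjusted p = 0.0274). HET differed from WT by 0.50 ± 0.13 (adjusted p = 0.0478), lost without WT replicates 1, 2, 3 or 4 or HET replicates 1, 2 or 3 (adjusted p = 0.0686 to 0.174). At day 7 the KO difference of UNC13B was 0.097 ± 0.16 (adjusted p = 0.677).

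UNC13C, the cerebellar Munc13 paralog, was read in KO libraries alone. At day 7 its KO libraries held 334 to 801 counts each, 8.65, 19.99, 11.2 and 12.1 CPM, and every WT and HET library of all 3 days held 0. Against a floor of 3 counts per library this is at least 165-fold higher than WT and at least 153-fold higher than HET at day 7. The edgeR adjusted p was 5.07e-05 against WT and 0.000328 against HET. The gene passed the filter on low counts at day 7 through its KO libraries alone. A call was thus to be foreseen once it was tested, and these p-values are no independent support. The counts of genes higher in KO at day 7, against WT and against HET, include it. KO libraries at day 0 were at 0.0271, 0.0335, 0.1305 and 0.0304 CPM and at day 3 at 0.0475, 0, 0 and 0.0248, levels too low to be tested. UNC13C spans 53978201 to 54633414 on chromosome 15 (plus strand, GRCh38 per GENCODE 29). Whether this goes with the RAI1 alleles or with the cells that carry them cannot be told apart.

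The RAB3 GTPases, which guide vesicles to the active zone, and their effector RPH3A were all higher in KO at day 7. Of all genes 17.0% were higher there. RAB3A was at 3.94, 5.26, 5.71 and 8.32 CPM in WT, 11.4, 13.5, 14.9 and 22.8 in HET and 25.3, 18.2, 32.2 and 25.9 in KO at day 3, with means in the order WT, HET, KO and WT apart from both mutants. Its differences were 2.11 ± 0.29 (adjusted p = 0.000228) in KO and 1.46 ± 0.29 (adjusted p = 0.0119) in HET. At day 7 RAB3A was at 44.9, 50.7, 85.3 and 56.7 CPM in WT, 157, 68.4, 109 and 55.4 in HET and 167, 136, 171 and 101 in KO. KO stayed above WT (1.27 ± 0.31 (adjusted p = 0.00767)), and HET overlapped it (0.71 ± 0.31 (adjusted p = 0.141)). RAB3C was at 25.1, 34.9, 33.03 and 41.1 CPM in WT, 42.4, 204, 257 and 111 in HET and 256, 272, 235 and 167 in KO at day 7. Both mutants lay above WT; HET replicate 1 was the nearest to it. The differences were 2.78 ± 0.42 (adjusted p = 0.000449) in KO and 2.18 ± 0.41 (adjusted p = 0.00467) in HET.

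RAB3B was higher in KO by 1.00 ± 0.29 (adjusted p = 0.0257) at day 3 and 1.68 ± 0.28 (adjusted p = 0.00077) at day 7, and in HET by 1.05 ± 0.27 (adjusted p = 0.0214) at day 7. The KO call at day 3 was lost without WT replicates 1 or 3 or KO replicate 2 (adjusted p = 0.0699 to 0.0803). The HET call was lost without WT replicates 1 or 4 or HET replicates 2 or 3 (adjusted p = 0.0557 to 0.0712). RPH3A, rabphilin, was at 0.118, 1.02, 0.947 and 0.536 CPM in WT, 2.47, 6.13, 6.93 and 1.51 in HET and 5.698, 16.5, 9.99 and 5.93 in KO at day 7, and the mutants lay above WT without overlap. It differed by 3.84 ± 0.64 (adjusted p = 0.000769) in KO and 2.68 ± 0.61 (adjusted p = 0.0116) in HET, and was too low at day 3 to be tested.

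Of 3 genes of vesicle retrieval 1 was higher in KO at day 3 and 2 at day 7, against 12.6% and 17.0% of all genes. DNM1 passed no test between genotypes, with 176, 164, 168 and 158 CPM in WT, 249, 165, 185 and 138 in HET and 187, 180.0, 201 and 159 in KO at day 7 and a KO difference of 0.12 ± 0.17 (adjusted p = 0.629). AMPH, amphiphysin, which recruits dynamin, was at 36.1, 30.8, 48.7 and 26.2 CPM in WT, 111, 53.4, 83.3 and 39.4 in HET and 77.2, 122, 143 and 62.2 in KO. KO lay above WT, and HET overlapped it. The differences were 1.5 ± 0.34 (adjusted p = 0.00504) and 1.01 ± 0.34 (adjusted p = 0.0605). SYNJ1, synaptojanin, a lipid phosphatase that uncoats vesicles, was at 24.6, 29.1, 22.9 and 28.5 CPM in WT and 53.5, 72.2, 44.2 and 38.7 in KO at day 3 and 44.2, 50.3, 57.4 and 50.4 CPM in WT and 71.7, 85.3, 73.5 and 70.6 in KO at day 7. No KO library overlapped WT on either day, and the differences were 0.96 ± 0.20 (adjusted p = 0.00434) and 0.57 ± 0.17 (adjusted p = 0.023). The day 7 call was lost without WT replicates 1 or 2 or KO replicate 2 (adjusted p = 0.0504 to 0.0708).

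NRXN2 and NRXN3 encode neurexins, presynaptic adhesion receptors. NRXN2 was at 45.02, 103, 121 and 147 CPM in WT, 308, 357, 396 and 289 in HET and 363, 410.3, 447 and 384 in KO at day 7, both mutants above every WT library. It differed by 1.95 ± 0.28 (adjusted p = 0.000303) in KO and 1.7 ± 0.27 (adjusted p = 0.002) in HET, and in KO by 1.85 ± 0.25 (adjusted p = 0.000215) at day 3. NRXN3 was under 1 CPM in every library at day 3 and at 0.68, 5.899, 4.85 and 4.401 CPM in WT, 4.67, 15.3, 15.3 and 5.79 in HET and 15.6, 26.2, 25.5 and 15.9 in KO at day 7, a KO difference of 2.38 ± 0.54 (adjusted p = 0.0053) and a HET difference of 1.36 ± 0.53 (adjusted p = 0.103), the latter 1.27 (adjusted p = 0.0137) without the first replicates of WT and HET. SNCB, beta-synuclein, was at 3.104, 2.96, 6.78 and 2.49 CPM in WT and 13.4, 7.14, 11.2 and 7.904 in KO at day 7. The groups did not overlap, and KO was higher by 1.37 ± 0.37 (adjusted p = 0.0127), lost without KO replicate 1 (adjusted p = 0.0503). At day 3 SNCB lay between 0.387 and 3.85 CPM in WT and 0.475 and 3.29 in KO.

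Set side by side, 19 of the 47 genes were higher in KO on both later days, 10 were called higher at day 3 and not at day 7, and 9 at day 7 and not at day 3. Of all genes 12.6% were higher at day 3 and 17.0% at day 7. The shares of all genes higher on both days or on 1 alone are not given. Whether the KO difference itself changed was tested over all 36 libraries. Between day 0 and day 3 it moved up for 20 genes and down for 1 (SYT2), against 5.37% and 3.19% of all genes. The largest of these was PPFIA2, by 3.82 ± 0.65 (adjusted p = 0.000257), followed by SYNGR3 (2.56 ± 0.75 (adjusted p = 0.0295)) and SYT13 (2.54 ± 0.67 (adjusted p = 0.0152)). Between day 3 and day 7 it moved up for 10 genes and down for 9, against 7.6% and 10.9% of all genes. Those that moved down were BSN, CPLX1, PPFIA2, RIMS3, STX1A, SV2B, SYT4, SYT11 and UNC13B, and those that moved up were AMPH, NRXN3, PCLO, RAB3C, RPH3A, SV2A, SYN2, SYT2, SYT5 and SYT9. Besides CPLX1 and RIMS3, UNC13B moved by -0.96 ± 0.16 (adjusted p = 6.37e-05) and STX1A by -1.75 ± 0.36 (adjusted p = 0.000692). AMPH moved by 1.69 ± 0.37 (adjusted p = 0.00114) and SV2A by 1.06 ± 0.26 (adjusted p = 0.0039). On TPM the same test called 1 gene up and 3 down, of 46 tested.

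**Figure D4:**
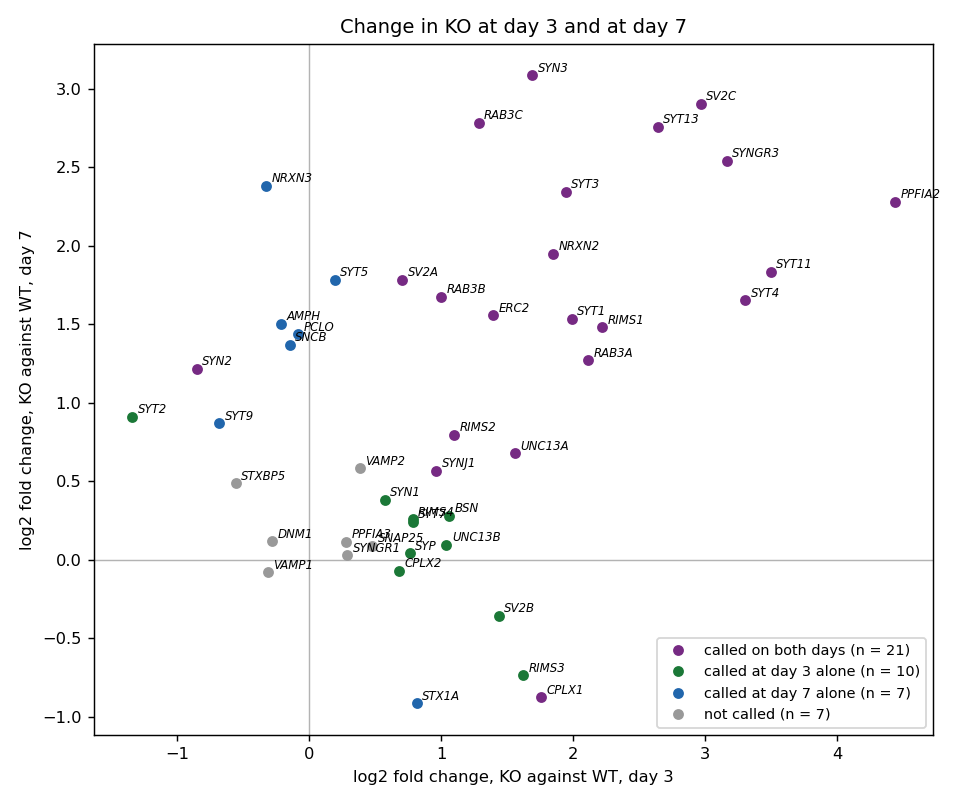
Log2 fold change of KO against WT at day 3 (x axis) and at day 7 (y axis) for the 45 genes tested on both days, from edgeR, coloured by the day on which a gene passed an adjusted p of 0.05. The gene furthest right is PPFIA2 (4.43 at day 3), and SYN3 stands highest (3.09 at day 7). CPLX1, CPLX2, RIMS3, SV2B and STX1A lie to the right of 0 and below it.

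The KO mean at day 3 exceeded the WT mean at day 7 for 13 of 47 genes (27.7%, against 48.6% of all genes). In 1 of them, DNM1, all KO libraries at day 3 lay above all WT libraries at day 7. DNM1 fell in WT itself after day 3 and passed no test between genotypes. The WT mean at day 3 exceeded the WT mean at day 7 for 4 of 47 genes (8.51%, against 48.0% of all genes). The order WT, HET, KO of the group means held for 28 of 45 genes at day 3 (62.2%, against 29.9% of all genes) and for 30 of 47 at day 7 (63.8%, against 29.1%). KO and HET were also compared directly. At day 3, 8 of 45 genes were higher in KO than in HET (background 2.77%) and 0 lower (background 1.58%) by edgeR, with 0 lower at an unadjusted p under 0.05 and 0 by DESeq2. They were ERC2, NRXN2, RAB3C, RIMS1, RIMS3, SYT1, SYT3 and UNC13B, with RIMS1 the largest at 1.48 ± 0.28 (adjusted p = 0.00987), and leaving out each library in turn gave 3 (without HET replicate 1) to 8 calls. At day 7, 1 gene was higher (UNC13C) and 1 lower (VAMP1), against 0.668% and 0.737% of all genes. Leaving out each library in turn gave 1 (without KO replicate 1, 2 or 3) to 5 calls (without HET replicate 3), and leaving out the first replicates of WT and HET gave 5.

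Levels of different genes can be set against each other only per transcript length, in TPM. In WT stem cells the highest of the 47 was SV2A at 17.05 ± 1.97 TPM (mean ± SD, n = 4), followed by UNC13B at 11.4 ± 1.35 and DNM1 at 10.4 ± 2.25. The last pair did not differ beyond their SD. At day 3 DNM1 led with 61.7 ± 25.99 TPM, ahead of SYP with 29.4 ± 5.67 and CPLX2 with 14.9 ± 7.43. At day 7 the WT order began with SYP at 35.3 ± 7.51, RIMS3 at 30.3 ± 12.2, SYT4 at 27.3 ± 10.2 and DNM1 at 21.98 ± 6.23 TPM, neighbours within their SDs. In KO at day 7 SYT4 stood first at 115 ± 38.02 TPM, apart from SYP at 52.9 ± 8.84, RAB3A at 52.02 ± 16.2, SYT1 at 49.1 ± 14.01 and NRXN2 at 47.9 ± 13.1, which did not differ beyond their SDs. In HET SYT4 was also first, at 132 ± 118 TPM, with an SD nearly as large as its mean.

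**Figure D5:**
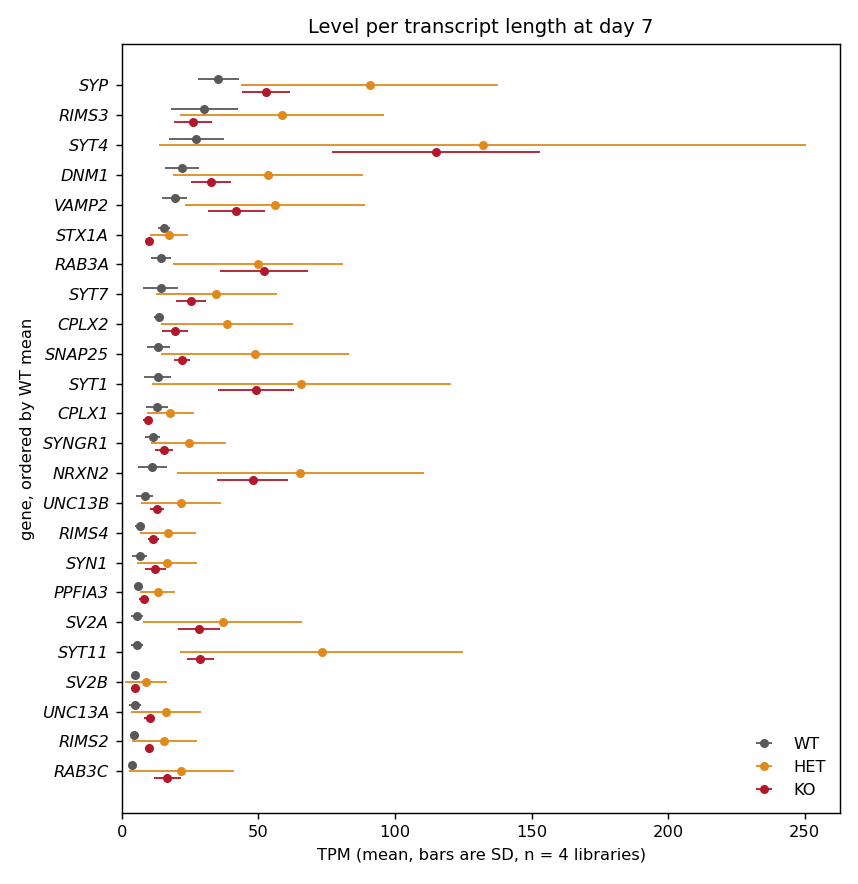
Mean TPM (x axis, bars are SD, n = 4 libraries) at day 7 of the 24 genes of the 47 with the highest WT means, ordered by WT, in WT (grey), HET (orange) and KO (red). SYP leads in WT and SYT4 in KO and HET, and the HET bars are the widest.

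A list of 62 further presynaptic genes (other SNAREs, synaptotagmins, endocytic adaptors, scaffolds and others) was read beside the 47. At day 3, 18 of 60 tested were higher in KO and 9 lower, against 12.6% and 8.93% of all genes. At day 7, 27 were higher and 11 lower, against 17.0% and 15.6%, with medians of 0.14 and 0.41 log2. In HET at day 7, 22 were higher and 6 lower, against 8.31% and 6.1% of all genes. At day 3 KO exceeded WT in SNCG, gamma-synuclein, by 3.92 ± 0.54 log2 (adjusted p = 0.000224) and in SNAP91, an adaptor for clathrin coats, by 3.10 ± 0.29 (adjusted p = 1.22e-05). At day 7 SYT6 was higher by 5.87 ± 0.83 (adjusted p = 0.000312). CPLX3, a complexin of retinal ribbon synapses, fell by 4.46 ± 0.60 (adjusted p = 0.000221), from a mean of 18.3 to 0.835 CPM. In the stem cells 3 of 59 tested were higher in KO, against 1.66% of all genes. CASK, a scaffold that binds neurexins, went from 108 to 225 CPM (1.10 ± 0.061, adjusted p = 2.05e-07), SYT6 from 9.78 to 19.7 CPM, and SYT10 from 0 counts to at least 35.1-fold above the floor.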

How the data were processed

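Total RNA depleted of ribosomal RNA was sequenced in 36 libraries (151 bp paired reads). Per the submitters' processing notes, reads were handled with cutadapt 4.8, FastQC 0.11.8, MultiQC 1.20, STAR 2.7.8a and RSEM 1.3.3 on GRCh38; the annotation release and strand setting are not given in the sources used here. The authors deposited RSEM expected counts per gene, whole numbers in every cell, and TPM; FPKM was not used. Of 62714 features 4 reporter sequences were left out.

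Counts were fitted with edgeR 4.0.16 (TMM, filterByExpr, quasi-likelihood test, Benjamini-Hochberg adjusted p under 0.05 over all genes tested) in R 4.3.3, with the 12 libraries of a day for genotypes, the 12 WT libraries for days and all 36 for changes of a difference. Every adjusted p in the report is from these fits unless another tool is named, and ± beside a log2 fold change is its standard error. Alternatives were DESeq2 1.42.0, limma 3.58.1 on log2(TPM + 1) and log2(TPM + 0.1), other scalings and filters, and leaving out libraries. The edgeR fit was tested on simulated data. Totals of 23948079 to 56678796 counts set the precision.

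Same-numbered libraries deviated together in KO and WT at day 0 (r 0.266 to 0.648 over 4 pairs) and day 3 (0.142 to 0.554) and in HET and WT at day 3 (0.157 to 0.771). Blocked counts and values are therefore given at day 3. For KO and WT at day 0, 8 of 8 libraries correlated best with their own number, and the values printed there are without a block. In each comparison with WT at day 3, 5 of 8 libraries correlated best with their own number. KO and HET at day 3, in the same blocked fit, had r from -0.061 to 0.667. Genes with values for each library were, in each role, the 2 with the highest mean TPM and up to 3 with the largest fold changes from WT. The latter had to be called at day 3 or day 7 without overlap, with a mean of at least 1 CPM in the higher group. RAB3B is also given by library in WT, and the rest by ranges or by their differences. The genes and lists were chosen with earlier results of these data known. Some genes of the further presynaptic list that met its naming rule are not reported here. Promoter sequences are from RefSeq, GRCh38.p14.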

Additional observations from a re-analysis of the deposited data

Results flagged for a closer look

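A library was singled out where its gap to the nearest of its group of 4 took up more of the group's range than Dixon's critical value at 95%. Chance gives this in about 1 in 20 groups, which over the 387 groups with a testable range is 19.4, and 31 were found.

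In WT day 7 replicate 1, SYT3 was at 2.72 CPM, below the others at 7.89 to 8.66. There SYT5 was at 6.89 CPM, below the others at 11.3 to 12.01. There SYT4 was at 189 CPM, below the others at 264 to 277. In HET day 0 replicate 4, SYT13 was at 13.5 CPM, above the others at 6.38 to 7.13. There SYN1 was at 10.5 CPM, above the others at 5.86 to 6.56. There RIMS4 was at 28.04 CPM, above the others at 13.7 to 15.5. In HET day 7 replicate 1, SYP was at 570.2 CPM, above the others at 247 to 254. There SYNGR1 was at 266 CPM, above the others at 104 to 128. There STXBP5 was at 26.9 CPM, below the others at 48.7 to 49.997. There CPLX1 was at 97 CPM, above the others at 36.4 to 42.3. There PPFIA3 was at 148 CPM, above the others at 51.1 to 66.7. In HET day 3 replicate 4, STX1A was at 53.4 CPM, above the others at 26.6 to 29.3. There RIMS2 was at 15.8 CPM, below the others at 34.97 to 35.5. There SNCB was at 4.02 CPM, above the others at 0.245 to 0.624.

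Other libraries had 1 or 2 such values each. SYP in KO day 7 replicate 3 was at 257 CPM (248 to 249 in the others). SYNGR1 in HET day 0 replicate 3 was at 10.4 CPM (12.9 to 13.1 in the others). SYNGR1 in KO day 7 replicate 1 was at 114 CPM (135 to 136 in the others). SV2A in KO day 7 replicate 4 was at 212 CPM (288 to 298 in the others). SV2B in KO day 3 replicate 2 was at 27.5 CPM (16.5 to 18.4 in the others). SV2C in KO day 7 replicate 1 was at 40.1 CPM (11.01 to 14.5 in the others). SNAP25 in KO day 0 replicate 4 was at 0.791 CPM (1.51 to 1.599 in the others). SNAP25 in KO day 3 replicate 1 was at 46.1 CPM (40.2 to 40.7 in the others). SNAP25 in KO day 7 replicate 4 was at 119.9 CPM (94.2 to 95.9 in the others). STX1A in WT day 7 replicate 2 was at 58.2 CPM (69.3 to 70.7 in the others). CPLX1 in WT day 3 replicate 1 was at 37.4 CPM (25.6 to 26.8 in the others). RIMS1 in WT day 0 replicate 4 was at 2.29 CPM (3.27 to 3.46 in the others). ERC2 in HET day 0 replicate 2 was at 9.601 CPM (8.002 to 8.24 in the others). DNM1 in KO day 0 replicate 2 was at 49.9 CPM (30.3 to 31.6 in the others). AMPH in KO day 0 replicate 1 was at 14.2 CPM (22.6 to 23.9 in the others). SNCB in WT day 7 replicate 3 was at 6.78 CPM (2.49 to 3.104 in the others). NRXN3 in HET day 0 replicate 1 was at 12.4 CPM (3.75 to 5.08 in the others).

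The difference between KO and WT changed between days by a test of the change itself (edgeR, adjusted p under 0.05) for 21 of the 47 genes from day 0 to day 3 and for 19 from day 3 to day 7. Of all genes 5.37% moved up and 3.19% down from day 0 to day 3, and 7.6% and 10.9% from day 3 to day 7.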

How the results depend on the processing

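Calls were counted among the 47 genes under each alternative, and the cause of a change was not tested except where fewer libraries entered the fit. Shares of all genes are not given for the alternatives, so their counts have no background beside them. Of 92 called differences from WT none changed direction, and 67 held without each library in turn. On log2(TPM + 1) 44 held and 42 were lost, and the rest were not tested there because the genes did not pass its filter. In every alternative that tested them 8 held, among them UNC13C in KO at day 7, which was not tested on filtered TPM. KO against WT gave 2 calls at day 0, 4 with DESeq2, 1 with limma on log2(TPM + 1) or log2(TPM + 0.1) and 0 on unfiltered TPM (5 higher and 2 lower at an unadjusted p under 0.05). At day 3 it gave 31, 11 on TPM with either pseudocount and 1 unfiltered. At day 7 it gave 30, and 3 on unfiltered TPM.

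HET against WT at day 3 gave 7 calls, 4 with library size alone, 14 with DESeq2, 0 and 1 on TPM with pseudocounts of 1 and 0.1, 0 on unfiltered TPM, 4 without small structural RNAs, 12 with all 36 libraries in the fit and 3 with the compared groups only. At day 7 it gave 20, 13 and 10 on TPM, 2 unfiltered and 11 with the compared groups only. KO against HET gave 2 calls at day 0, and 1 with the compared groups only. At day 3 it gave 8, 4 with library size alone, 14 with DESeq2, 0 in each fit on TPM (8 higher at an unadjusted p under 0.05), 13 with all libraries and 5 with the compared groups only. At day 7 it gave 2, 4 with DESeq2, 0 on TPM, 1 unfiltered, 8 with the structural RNA share as a covariate and 5 without the first replicates of WT and HET. The WT change from day 3 to day 7 gave 35, and 22 on unfiltered TPM. The change of the KO difference gave 21 and 19, on TPM 2 and 4, with a pseudocount of 0.1 3 and 4, and unfiltered 2 and 4. From day 3 to day 7 its split was 10 up and 9 down, and 10 and 12 with the covariate.

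With the replicate number as a block, HET against WT at day 3 gave 20 calls, KO against HET 18 at day 3 and 4 at day 7, and KO against WT 33 at day 3. Where the numbers paired the libraries (KO and HET against WT at day 3, KO against WT at day 0), no other count moved by over 1.5 times.

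Leaving out each library in turn gave 2 to 2, 25 to 31 and 26 to 29 calls for KO against WT at days 0, 3 and 7, 2 to 3, 3 to 15 and 12 to 28 for HET against WT, and 2 to 2, 3 to 8 and 1 to 5 for KO against HET. It gave 30 to 34 and 34 to 38 for the WT changes and 16 to 20 and 16 to 22 for the changes of the KO difference. Depth limits genes near 1 CPM, and 4 libraries a group limit every test.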

Other observations

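Of the 47 genes, 37 overlap another gene annotated in GENCODE 29 and 32 overlap one on the opposite strand. The strand setting of the counting is not given in the sources used here, so reads of such neighbours cannot be told apart.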
